A study of Homo sapiens with 17 samples.

Results

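The 77 genes described here are those whose signal fell after doxycycline was given to IMR32 cells carrying an inducible NOTCH3IC construct. They were chosen from the measurements themselves. Signals were expressed as log2(signal + 16), each gene was read by its brightest probe set with a single gene symbol, and a mean of 5.5 or more over the arrays was required. A gene was taken when its mean at times 48, 72 and 96 lay 0.6 or more below time 0 of its own clone, in both clones. Of 10528 genes tested, 88 met these thresholds. The 11 of them that the rule leaves out by name (DBH, SLC6A2, PHOX2A, HAND1, DACH1, SATB1, EGR1, DLK1, MFNG, DLL3 and ZNRF3) are not counted here, which left 77.

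IMR32 is an established human neuroblastoma line, derived from a tumour of the sympathetic nervous lineage. All cultures carried the construct for the intracellular, active form of the receptor NOTCH3, and were grown in DMEM with fetal calf serum. The clones c6 and c8, each a single clone of the line, were sampled at time 0 and at times 4, 8, 12, 24, 48, 72 and 96 with doxycycline, and c6 also at time 120. The labels give no unit for these times. Each clone and time was read by 1 array, which made 17 arrays. No culture without doxycycline after time 0 was analysed here, so time in culture, the drug and NOTCH3IC cannot be told apart. Nothing in the labels says whether times were separate cultures, so the p-values measure only the spread between these arrays. This spread may be technical. In tests that take neighbouring times as replicates it also holds change between those times. In such bulk RNA, fewer cells of a type and less RNA per cell cannot be told apart.

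Notch receptors are cut after ligand binding, and the released intracellular domain acts in the nucleus with the DNA-binding protein RBPJ as an activator of transcription. Among its direct targets are the HES and HEY repressors, which bind class B E-boxes, class C sites and N-boxes and are known for holding back neuronal differentiation genes. In neuroblastoma lines, cells of a neuronal, noradrenergic state and of a mesenchymal state are known, and Notch genes belong to the latter.

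The NOTCH3 signal in c6 was 94.6, 75.2, 161, 205, 446, 467, 424, 393 and 453 from time 0 to 120. In c8 it was 218, 275, 440, 780.3, 1028, 794, 703 and 836 from time 0 to 96. Time 4 of c6 was below its start, and all later arrays were above it in both clones. The labels do not say whether this probe set reads the NOTCH3IC construct. A fixed list of sympathetic neuroblast markers was read, of which 13 of 18 were bright enough to be tested. At time 0 the summed signal of the 17 markers read was 16530 in c6 and 15829 in c8. Late changes of these markers do not test the label of the line. By limma, 2 of the 13 fell (INSM1 and EYA1) and 2 rose (SCG2 and GATA2) late against start, and the other 9 did not pass the test. Over all genes 2.36% were called lower and 6.08% higher late against start. INSM1 is one of the 77, so its late fall was chosen for. The list does not hold DBH, SLC6A2, PHOX2A and HAND1, which met the thresholds of the fall and are left out by name. The counts of falls and rises therefore do not cover these sympathetic genes. Of 16 mesenchymal or fibroblast markers, 9 of the 11 tested rose late, none fell, and the summed signal of the list went from 6358 at time 0 to 19957 at time 120 in c6 and from 4519 to 13324 at time 96 in c8. Of the 12 Schwann cell and glia markers, 8 had a probe set with a single gene symbol, and none of these was bright enough to be tested. Their summed signal lay between 18.4 and 133 on all arrays. The rest of this list was not read. The part of these markers in the falls described below was not tested.

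Stretches of the promoters of 6 members are shown, each around a match to a motif searched for HES and HEY repressors or for activators of growth and stimulus responses. All but RAI14 passed a test described below on arrays the rule had not used. The sequences come from RefSeq, assembly GRCh38.p14, and are read 5′ to 3′ on the gene's own strand. Capitals mark every match of the named motif on either strand, and positions count back from the annotated start of the gene. F3, the tissue factor that starts blood clotting, is shown for its pair of AP-1 matches (chr1:94541949-94542009, minus strand). HES6, a HES family factor that opposes HES1 in neuronal differentiation, is shown for an EGR core at -211 (chr2:238240214-238240276, minus strand), as is FGFR2, a fibroblast growth factor receptor, at -37 (chr10:121598446-121598508, minus strand). PELI2, an E3 ubiquitin ligase of innate immune signalling, is shown for a class C site at -207 (chr14:56118177-56118236, plus strand). MYRIP, a linker of RAB27A-bearing granules to myosin, is shown for a class C site at -95 (chr3:39809487-39809546, plus strand). RAI14, an actin-associated ankyrin repeat protein, is shown for a class B E-box at -59 (chr5:34656242-34656301, plus strand).
F3: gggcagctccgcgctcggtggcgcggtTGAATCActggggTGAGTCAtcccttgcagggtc
HES6: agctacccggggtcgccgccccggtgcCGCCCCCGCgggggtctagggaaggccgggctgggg
FGFR2: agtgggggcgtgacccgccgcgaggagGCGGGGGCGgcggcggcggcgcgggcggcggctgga
PELI2: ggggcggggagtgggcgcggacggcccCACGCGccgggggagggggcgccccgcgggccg
MYRIP: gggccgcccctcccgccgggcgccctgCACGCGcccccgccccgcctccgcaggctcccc
RAI14: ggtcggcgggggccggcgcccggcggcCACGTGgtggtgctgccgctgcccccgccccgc

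The table of promoters held 53 of the 77 members, or 68.8%, so a comparison of motif shares between the members and all genes is void. Among those 53, in the 250 bases before the start and on both strands, the class B E-box CACGTG was found in 2 (RAI14 and LRIG3) and the class C site CACGCG in 4 (MYRIP with 2 sites, PELI2, FUT9 and PALM3, whose 2 matches overlap). The same letters occur in 9.64% and 16.7% of the 8727 tested genes with a promoter. The N-box CACNAG was found in 18 members, the RBPJ core TGGGAA in 9, the EGR core GCGGGGGCG in 7, the AP-1 site TGANTCA in 2 and the CRE TGACGTCA in 1, against 28.7%, 19.3%, 8.20%, 3.20% and 3.12% of all tested genes. The E2F sites TTTGGCGC and TTTCGCGC were in none of the members' windows and in 0.894% and 0.882% of all. The class B and class C sites share their first letters, CACG, and the class C site of MYRIP at -95 overlaps an EGR core at -91. These matches are letters in a window and nothing was measured of any factor at them.

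Averaged over both clones at time 0, the signals of the 77 genes ran from 61.9 to 2180 with a median of 277, and 17 of 77 were under 100. The mean late change over both clones ran from -1.69 for NANOS1 to -0.62 for NEK7. In both clones 10 genes lay 1 or more below start on the log2 scale, and 37 did so in at least 1 clone. All 6 late arrays lay below start in 76 of the 77, the exception being LOC101927166, an uncharacterised transcript with late signals between 7.7 and 75.1. Just inside the threshold were KCNG1 (-0.60 in c6 and -0.81 in c8), MAGOHB (-0.71 and -0.61) and UNKL (-0.68 and -0.61). Just outside it were OXCT1 (-0.67 in c6 and -0.60 in c8), EBF3 (-0.60 and -0.86) and PKIA (-0.73 and -0.60). These values chose the members and carry no test. In the fit over all genes 2.36% were called lower and 6.08% higher late against start by limma, and 71 of the members were among the lower calls, a count the rule itself brings about. With each array centred on its median, 314 of all genes were lower and 465 higher, in place of 248 and 640.

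**Figure D1:**
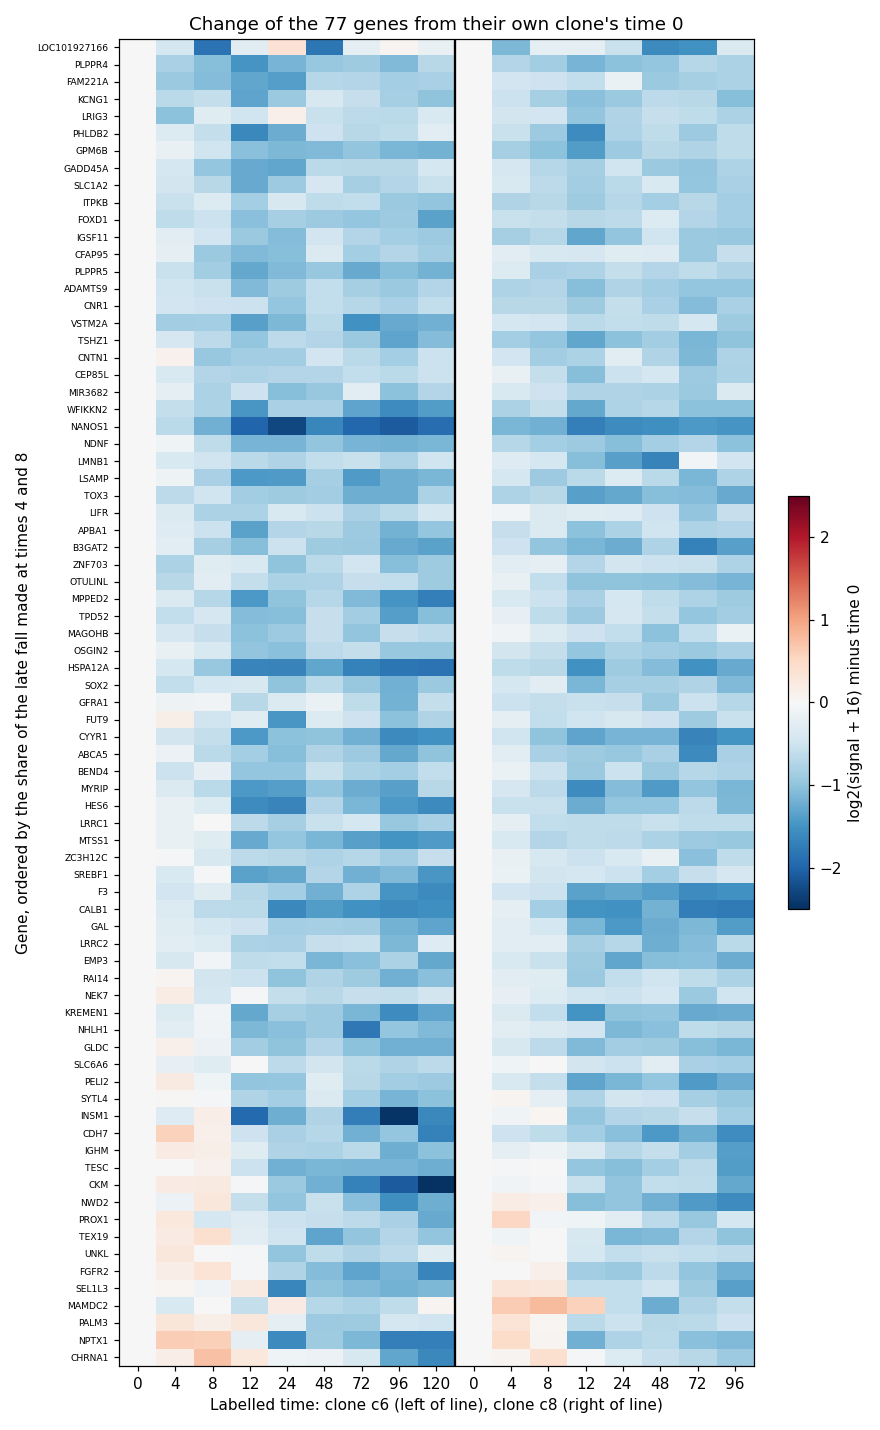
Change of each of the 77 genes (rows) from time 0 of its own clone on the log2(signal + 16) scale, for the 9 arrays of c6 (left of the line) and the 8 of c8 (right), 1 array per column; blue is lower and red is higher than time 0. Genes are ordered by the share of their late fall already present at times 4 and 8, and 14 genes, most of them near the bottom, showed under 25% of it there in both clones.

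The course of the 77 genes is given from time 0, the array on which the rule required them to be high, so part of the drop to the next array is built into the choice and these changes carry no test. In c6 the median change of the 77 genes was -0.32 at time 4, -0.44 at time 8, -0.86 at time 12 and -0.96 at time 24. In c8 it was -0.37, -0.56, -0.89 and -0.74 at the same times. From time 48 on it stayed between -0.73 and -1.10 in both clones, while the median of all tested genes lay between -0.02 and 0.04 on every array. At times 4 and 8 the median gene had made 40.1% of its late fall in c6 and 51.5% in c8, and at times 12 and 24 it had made 96.5% and 95.6%. These shares are divided by the late fall and so rest on values the rule used.

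**Figure D2:**
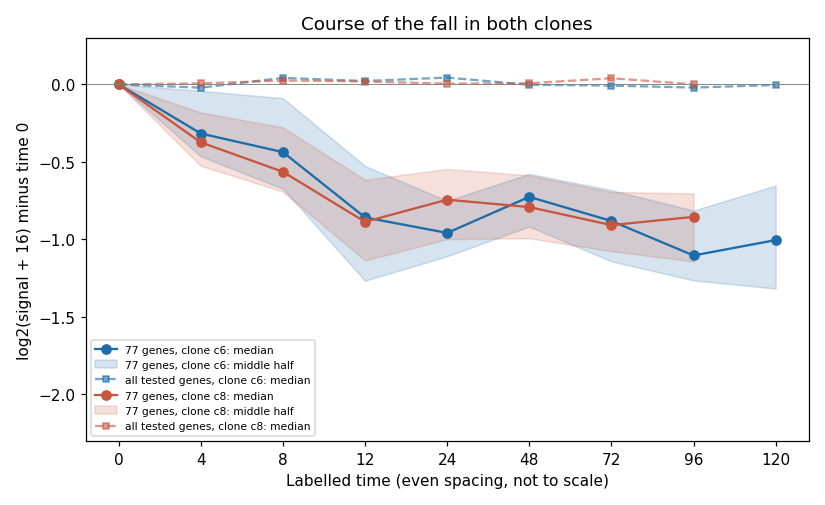
Median change from time 0 of the 77 genes (solid lines; shading spans the 25th to 75th percentile of the genes) and of all 10528 tested genes (dashed) by labelled time in c6 (blue) and c8 (red), 1 array per point, on the log2(signal + 16) scale. The medians of the 77 genes reach -0.86 in c6 and -0.89 in c8 at time 12, and the dashed lines stay at 0.

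Times 12 and 24 were compared with times 4 and 8, with the clone as a term. The rule had not used changes on these arrays, but their levels entered the mean filter and the choice of probe set. A dim gene could thus pass the filter through high arrays at times 4 and 8. NHLH1, with a mean of 5.68, stood at 6.13 there and at 5.44 at times 12 and 24. With the filter at a mean of 6.5, 55 members were tested, 55 were lower and 21 passed, against 1.48% of all genes. Of the 77 genes 75 were lower, with a median difference of -0.46 on the log2 scale, against 0.01 over all genes, of which 47.7% were lower. By limma with adjustment over all genes, 24 members fell (31.2%), against 1.34% of all genes called lower. None rose, against 3.31% called higher, and 1 member was higher at an unadjusted p under 0.05. At an unadjusted p under 0.05, 55 members were lower, and over all genes 1021 were lower and 1326 higher. Both arrays of 12 and 24 lay below both of 4 and 8 in 58 members in c6, against 18.7% of all genes, in 55 in c8, against 23.9%, and in 41 of 77 (53.2%) in both clones, against 8.68% of all genes. The 2 genes that were not lower were LOC101927166 (0.74) and LRIG3 (0.04), a membrane protein of the LRIG family.

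The number of members past the threshold depended on single arrays, while the direction did not. It was 5 without time 4 of c8, 7 without time 12 of c8, 9 without time 24 of c6, 10 without time 4 of c6, 11 without time 8 of c6, and 12 without time 8 of c8, with 74 to 76 members lower in each. Without the clone term 7 passed. HES6 and TESC passed under every alternative tried, and INSM1, NWD2 and PELI2 with every single array left out. Other calls were fragile. With each of the 9 arrays left out in turn, TOX3 and CDH7 passed in 2 of 9. HSPA12A, IGSF11, CYYR1, LMNB1, LRRC2, OSGIN2, NHLH1 and GAL passed in 3 of 9. Among the 9 is time 120 of c6, which has its own level in the fit. Leaving it out cannot change the estimate, and all 24 members passed without it, so it is no trial of these calls. With each array centred on its median 33 members passed, and calls over all genes were then 288 lower and 260 higher, in place of 141 and 349.

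Time 120, sampled in c6 alone, was compared with the same times 4 and 8, so both comparisons share those arrays. The level at time 120 entered the mean filter too, so the same limit holds for dim genes. Of the 77 genes 67 were lower, with a median of -0.54, against 0.00 for all genes. By limma 19 members fell, or 24.7%, against 0.769% of all genes called lower, and none rose, against 2.75% called higher. At an unadjusted p under 0.05, 40 members were lower and 0 higher, and over all genes 781 were lower and 1058 higher. The count was 10 without time 4 of c6, 11 without time 8 of c6, 11 without time 4 of c8 and 5 without the clone term. Both comparisons called 14 genes, 10 were called at times 12 and 24 only and 5 at time 120 only. The 10 genes not lower at time 120 than at times 4 and 8 included GADD45A (0.38), PHLDB2 (0.33) and PLPPR4 (0.26), and none of the 10 passed the test as higher. Some calls at time 120 were fragile. With each of the other 8 arrays left out in turn, INSM1, HES6, FOXD1 and IGHM passed in 3 of 8. GLDC, PELI2 and SYTL4 passed in 4 of 8, while F3 and TEX19 passed under every alternative tried. At time 120, 76 of the 77 genes still lay below time 0, against 50.4% of all genes, the exception being MAMDC2. The rule required the genes to be high at time 0, so this count is partly built into the choice. Of the 77 genes, 17 had their lowest c6 array at time 120, a count not set against all genes.

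**Figure D3:**
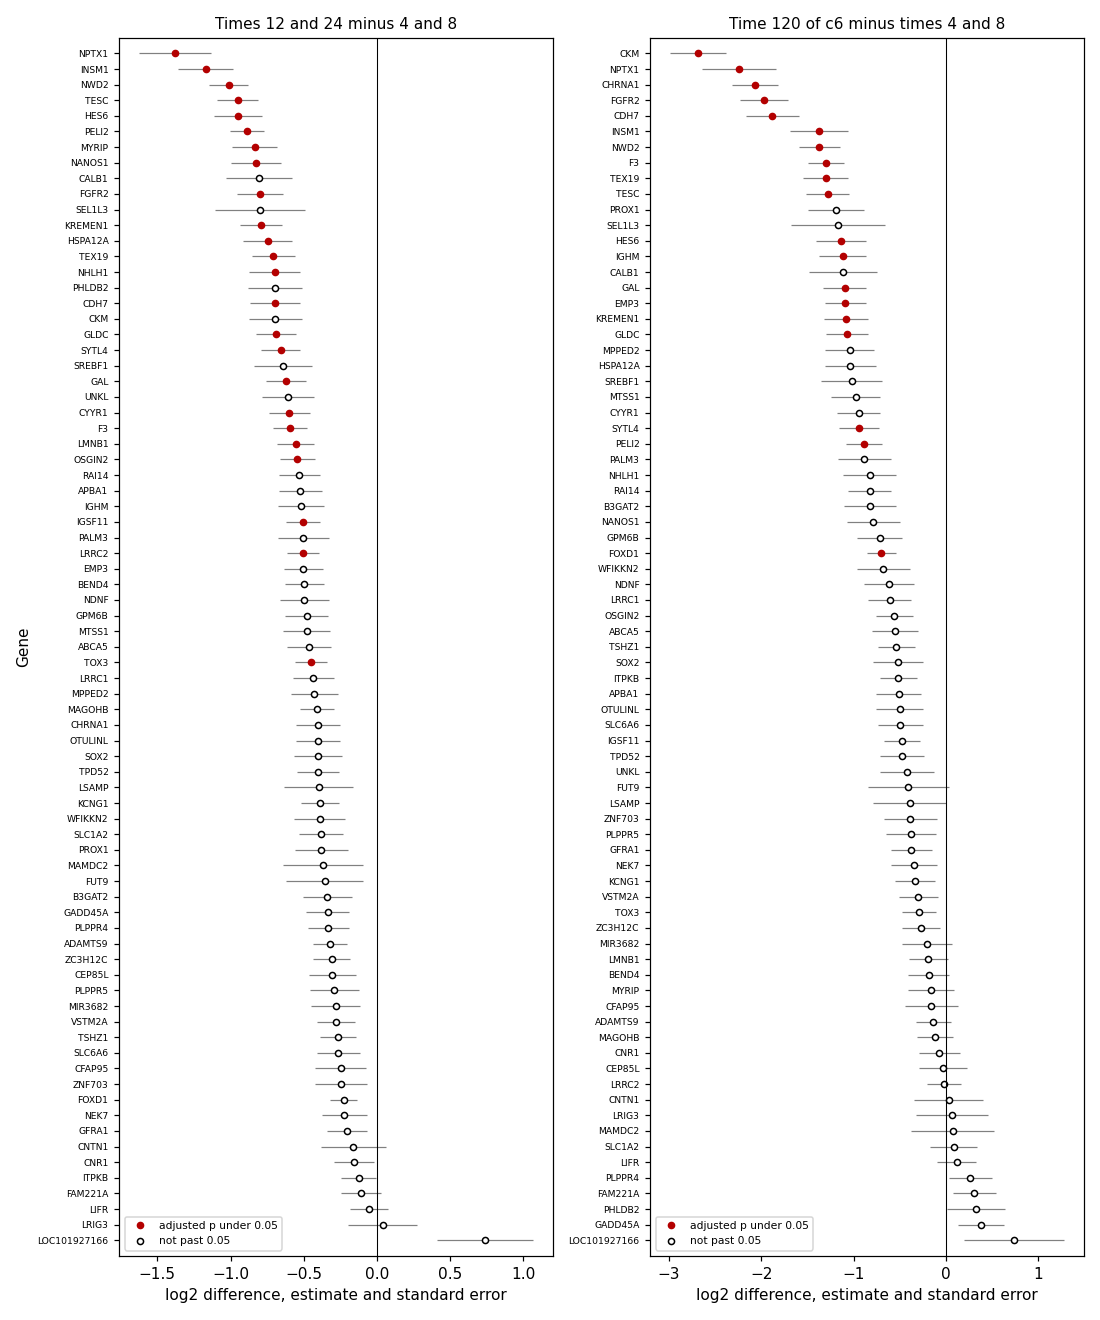
Estimated log2 difference and its standard error for each of the 77 genes between times 12 and 24 and times 4 and 8 in both clones (left) and between time 120 of c6 and times 4 and 8 (right), each panel ordered by size. Filled points passed an adjusted p of 0.05 over all genes by limma, 24 genes on the left and 19 on the right, all of them to the left of 0.

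Of 10 transcription factors among the members, 4 fell between times 4 and 8 and times 12 and 24 (INSM1, TOX3, NHLH1 and HES6) and 3 by time 120 (INSM1, HES6 and FOXD1); these and the other groups by role were put together after the values were seen. Over all 77 members 31.2% fell at times 12 and 24, against 1.34% of all genes. Neither this group nor those that follow was tested against these shares. INSM1, a zinc finger repressor of neuroendocrine and sympathoadrenal progenitors, had signals in c6 of 1365, 1087, 1538, 342, 575, 800.2, 402, 238 and 434 from time 0 to 120. In c8 they were 974, 915, 1006, 491, 577, 598, 652 and 536 from time 0 to 96. The lowest array up to time 8 was at 915 and the highest from time 12 on at 800.2, with no overlap in either clone. The difference between times 12 and 24 and times 4 and 8 was -1.17 ± 0.19 (SE, from the arrays of these times in both clones, 2.25-fold lower, limma, adjusted p = 0.0081). Its late fall was chosen for, and it differed between the clones by 0.94, with -1.64 in c6 and -0.70 in c8.

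HES6 had signals of 379, 331, 297, 116, 109.5, 223, 164, 129 and 114 in c6. Clone c8 gave 277, 182, 182, 108, 134, 134, 171 and 119. From time 12 on, every array stayed under the first 3 of its clone. The difference between times 12 and 24 and times 4 and 8 was -0.95 ± 0.16 (SE; 1.93-fold lower; limma, adjusted p = 0.010). Of the 14 tested genes on the list of Notch targets, 12 rose late by limma, among them HEY1 and HES1, against 6.08% of all genes. The late fall of HES6, the 1 member on the list, was fixed by the rule. HES1 went from 3.9 at time 0 to 715 at time 12 in c6 and from 14.3 to 356 at time 4 in c8.

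NHLH1, a basic helix-loop-helix factor of early neurons, was dim at 70.3 and 64.6 at time 0 and lay at 25.6 and 20.8 at time 24 in c6 and c8. It differed by -0.70 ± 0.17 between times 12 and 24 and times 4 and 8 (limma, adjusted p = 0.047). TOX3, an HMG box factor of neurons, went from 261 and 299.7 at time 0 to between 102 and 136 at times 48 to 96. It was already at 161 and 169.6 at time 4, and its further difference at times 12 and 24 was -0.45 ± 0.11 (adjusted p = 0.045). FOXD1, a forkhead factor, started at 1778 and 1301, was 1144 and 885 at time 4 and 690.1 at time 120 of c6, where it was lowest. Its difference at time 120 was -0.70 ± 0.15 (adjusted p = 0.031), and at times 12 and 24 it was -0.23 ± 0.09 (adjusted p = 0.18). The other 5 factors, SOX2, TSHZ1, PROX1, ZNF703 and SREBF1, were lower in both comparisons, and none passed the test.

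Among the 4 RNA regulators NANOS1 passed the test at times 12 and 24. NANOS1, a translational repressor of the Nanos family, showed the largest late fall of all members. Its signals in c6 were 505, 309.8, 211, 115, 91.6, 153, 117, 107 and 123. The c8 series was 582, 253, 243, 167, 186, 189.5, 206 and 198. Time 4 was already far below start in both clones, and no array from time 12 on overlapped those of times 0 to 8. The difference between times 12 and 24 and times 4 and 8 was -0.83 ± 0.17 (1.77-fold lower; limma, adjusted p = 0.024), and at time 120 it was -0.79 ± 0.29 (adjusted p = 0.18). ZC3H12C, UNKL and MAGOHB, the last a core part of the exon junction complex, were lower in both comparisons without passing.

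Of 13 receptors, ligands and signalling genes, 5 fell at times 12 and 24 (F3, KREMEN1, GAL, FGFR2 and PELI2) and these and CHRNA1 by time 120. GAL, the neuropeptide galanin made by sympathetic and sensory neurons, was the brightest member at time 0. Its signals in c6 were 1865, 1514, 1366, 1289.7, 1029, 1047, 1020, 809 and 739. Those of c8 were 2496, 2051, 1835, 1127, 914, 1053, 1141 and 933. The arrays of times 0 to 8 stood above all later arrays of their own clone. GAL differed by -0.62 ± 0.14 at times 12 and 24 (limma, adjusted p = 0.032) and by -1.10 ± 0.23 at time 120 (adjusted p = 0.025).

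FGFR2 did not drop at first. Its signals in c6 were 219, 247, 281, 214, 123, 95.3, 78.1, 88.6 and 59.2. Signals in c8 were 186, 187, 204, 94.5, 90.5, 113, 86.6 and 71.7. In both clones the array of time 8 was the highest, and c8 was down at time 12 while c6 was not until time 24. At time 120 FGFR2 was -1.97 ± 0.26 from times 4 and 8 (3.93-fold lower; limma, adjusted p = 0.0022), and at times 12 and 24 it was -0.80 ± 0.16 (adjusted p = 0.018). Its 2 other probe sets of sufficient brightness were lower late as well, by -0.60 and -0.86 in c6 and -0.74 and -1.40 in c8. On the list of receptor tyrosine kinases and neurotrophin receptors, 4 of 15 fell late and 3 rose by limma, against 2.36% and 6.08% of all genes. The 4 were FGFR2 and GFRA1, whose late falls chose them as members, and FGFR1 and PDGFRA, and the 3 were NTRK3, EPHA3 and DDR2.

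CHRNA1, the alpha subunit of the muscle nicotinic acetylcholine receptor, came down late. Its signals in c6 were 451, 508, 758, 543, 418, 406, 336, 174 and 137. The corresponding c8 signals were 342, 359.6, 458, 330.1, 265, 223, 206 and 175. Time 8 was the highest array in each clone, and the lowest were the last ones. At time 120 it was -2.07 ± 0.25 from times 4 and 8 (4.20-fold lower; limma, adjusted p = 0.0013). At times 12 and 24 it was -0.40 ± 0.15 (adjusted p = 0.14).

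F3 went from 332 at time 0 to 234, 266, 196, 178, 136, 189, 109 and 99.5 in c6. In c8 it went from 433 to 306, 293, 161, 169.6, 156, 136 and 141. The arrays of time 12 onward did not overlap those before it in either clone. The F3 difference was -0.59 ± 0.12 at times 12 and 24 (limma, adjusted p = 0.019) and -1.30 ± 0.19 at time 120 (adjusted p = 0.0041). Of 10 tested genes on the coagulation list 4 rose late by limma, against 6.08% of all genes. The late fall of F3, the 1 member on the list, was fixed by the rule.

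KREMEN1, a receptor for the WNT inhibitors of the Dickkopf family, had signals in c6 of 938, 732, 888, 377, 523, 491, 416, 303 and 367. In c8 they were 987, 764, 636, 341, 486, 488, 401 and 410.3. Time 12 was its lowest array in c8, and in neither clone did any array from time 12 on reach those before. It differed by -0.79 ± 0.14 at times 12 and 24 (limma, adjusted p = 0.013) and by -1.08 ± 0.24 at time 120 (adjusted p = 0.031). PELI2 was -0.89 ± 0.12 at times 12 and 24 (adjusted p = 0.0039) and -0.89 ± 0.20 at time 120 (adjusted p = 0.031). Its signals at times 4 and 8 were 566 and 445 in c6, either side of the start at 482, and 417 and 357 in c8, below the start at 546. In c6 they were 234 and 239.7 at times 12 and 24, and in c8 211 and 238.

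**Figure D4:**
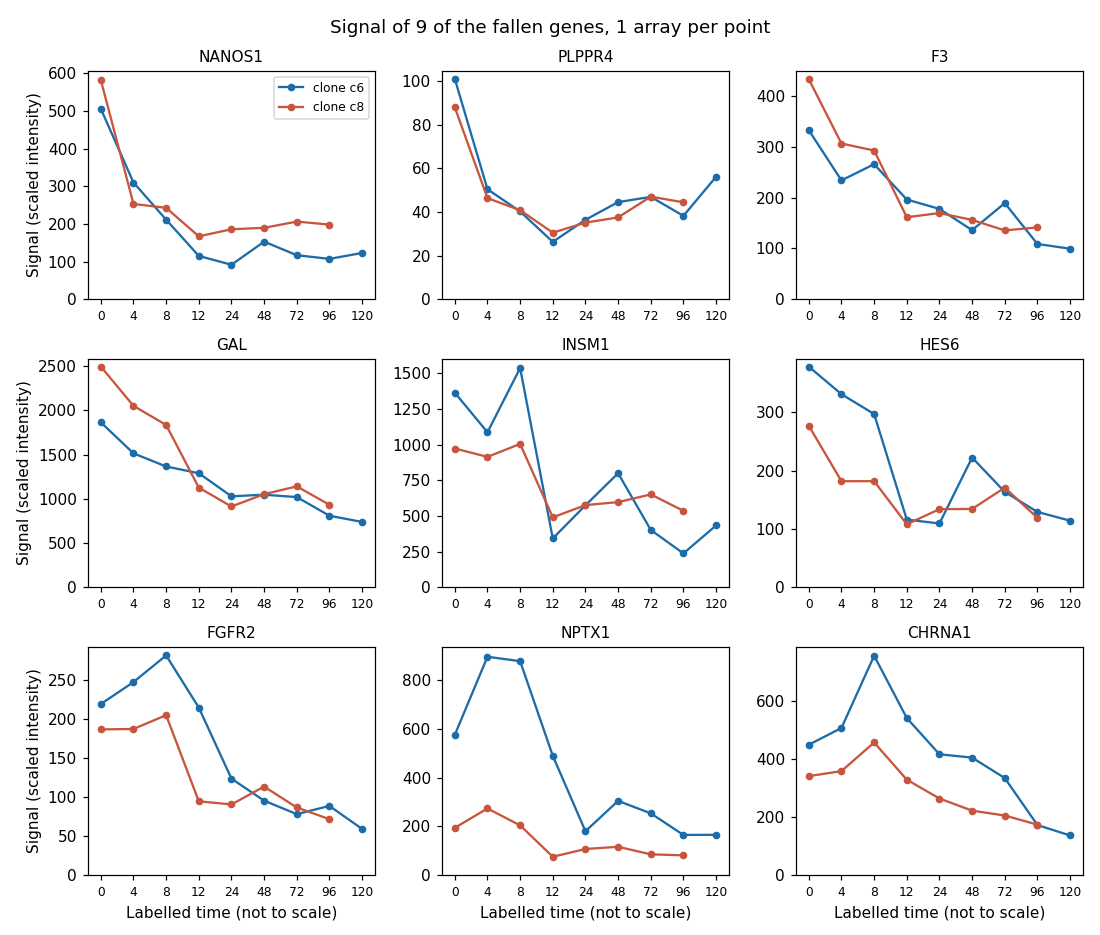
Signal (scaled intensity, linear axis from 0) by labelled time for 9 of the fallen genes in c6 (blue) and c8 (red), 1 array per point. NANOS1 and PLPPR4 are near their late level by time 12, while FGFR2, NPTX1 and CHRNA1 stand at or above their start at times 4 and 8 before falling.

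Of the 9 genes of neuronal adhesion and membrane, 3 fell at times 12 and 24 (CDH7, NPTX1 and IGSF11) and 2 by time 120 (CDH7 and NPTX1). NPTX1, a neuronal pentraxin that gathers glutamate receptors at synapses, had signals in c6 of 575, 895, 876, 489, 180.3, 305, 254, 165 and 166. Clone c8 gave 194, 274, 204, 75.9, 108, 117, 85.8 and 81.7. Both clones stood above their start at times 4 and 8, and below it from time 12 on. The difference at times 12 and 24 was the largest of all members, -1.38 ± 0.24 (2.60-fold lower; limma, adjusted p = 0.012), and at time 120 it was -2.24 ± 0.41 (4.73-fold lower; adjusted p = 0.012).

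CDH7, a type II cadherin, had signals in c6 of 154, 238, 171, 102, 80.4, 88.2, 58.2, 71.1 and 36.7. The c8 series was 92.5, 59.4, 54.0, 44.2, 36.9, 24.0, 30.7 and 20.8. The clones differed in their early course, with c6 above and c8 below start at times 4 and 8, and the last array was the lowest in each. At time 120 CDH7 was -1.88 ± 0.28 (limma, adjusted p = 0.0044) and at times 12 and 24 -0.70 ± 0.17 (adjusted p = 0.046). IGSF11, an immunoglobulin family adhesion protein, was -0.51 ± 0.12 at times 12 and 24 (adjusted p = 0.035).

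PLPPR4, a lipid phosphatase-related protein of neurons, came down early. Its signals in c6 were 101, 50.4, 40.2, 26.3, 36.4, 44.5, 46.9, 38.2 and 56.1. Those of c8 were 87.9, 46.3, 40.8, 30.5, 35.1, 37.5, 47.0 and 44.4. Time 12 was lowest in both clones, and the late arrays stood above it. Over both clones it had made 96.6% of its late fall by times 4 and 8. On the fixed list of synapse and axon genes 5 of 27 fell late and 5 rose by limma, against 2.36% and 6.08% of all genes. CNTN1, a contactin, was the 1 member, its late fall fixed by the rule. ELAVL2 and NLGN4X fell too, and GAP43 and DCX rose.

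Of 4 genes of vesicle traffic, MYRIP and SYTL4 fell at times 12 and 24 and SYTL4 by time 120. MYRIP went from 102 at time 0 of c6 to 76.5, 58.2, 28.0, 29.7, 44.9, 34.1, 30.1 and 56.9. In c8 it went from 133 to 95.5, 78.7, 34.2, 54.8, 39.8, 59.0 and 51.7. Its difference at times 12 and 24 was -0.84 ± 0.15 (limma, adjusted p = 0.013), and at time 120, where c6 was back at 56.9, it was -0.16 ± 0.25 (adjusted p = 0.79). SYTL4, granuphilin, which docks secretory granules, stood at 133 and 124 at times 4 and 8 of c6 and at 70.6 and 64.2 at times 12 and 24. In c8 the same times gave 138, 108, 70.6 and 90.7, again without overlap. It differed by -0.66 ± 0.13 (adjusted p = 0.020) and at time 120 by -0.94 ± 0.22 (adjusted p = 0.041).

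Of 9 enzymes, transporters and channels, GLDC fell at times 12 and 24, and CKM and GLDC by time 120. CKM, the muscle creatine kinase, had signals in c6 of 219, 254, 261, 216, 107, 85.9, 57.2, 39.9 and 26.5. Signals in c8 were 100.3, 92.9, 96.5, 63.2, 43.1, 59.8, 59.1 and 31.6. The c6 values went down at every step from time 8 on. At time 120 CKM was -2.69 ± 0.30 from times 4 and 8, the largest difference among the members (6.44-fold lower; limma, adjusted p = 0.0011). At times 12 and 24 it was -0.69 ± 0.18 (adjusted p = 0.057). GLDC, the glycine decarboxylase of the glycine cleavage system, was -0.69 ± 0.14 at times 12 and 24 (adjusted p = 0.019) and -1.07 ± 0.23 at time 120 (adjusted p = 0.026). B3GAT2, a glucuronyltransferase of the HNK-1 carbohydrate, was among the 15 largest late falls with -1.02 in c6 and -1.27 in c8, and passed neither test.

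The 2 calcium-binding genes were CALB1 and TESC. CALB1, calbindin, had the next largest late fall after NANOS1, from 72.8 at time 0 to between 13.5 and 17.6 at times 48 to 96 in c6 and from 101 to between 18.1 and 35.6 in c8. These late signals lie near the pseudocount of 16, so the log2 change understates the ratio. It was -0.81 ± 0.22 at times 12 and 24 (limma, adjusted p = 0.064). TESC, tescalcin, held at 222 and 243 at times 4 and 8 of c6 around a start of 224, and was 148 and 88.1 at times 12 and 24. In c8 it held at 266 and 272 around a start of 274, and was 134 and 124. TESC differed by -0.95 ± 0.14 (adjusted p = 0.0053) and at time 120 by -1.28 ± 0.23 (adjusted p = 0.012).

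Of 5 genes of the cytoskeleton, nuclear envelope and centrosome, LMNB1 fell at times 12 and 24. LMNB1, lamin B1, had signals in c8 of 1459, 1171, 1067, 690.5, 563, 445, 1391 and 1042. In c6 they were 564, 430.2, 397, 346, 329, 363, 379.8, 323 and 397. The late c8 arrays spanned 445 at time 48 to 1391 at time 72, while in c6 the late arrays lay close together. It differed by -0.55 ± 0.13 at times 12 and 24 (limma, adjusted p = 0.034). MTSS1, an actin-regulating protein, went from 709.5 to between 243 and 313 in c6 and from 516 to between 260.3 and 293 in c8 at times 48 to 96. PHLDB2, a partner of cortical microtubules, had its lowest array at time 12 in both clones, 382 and 432, after starts of 1198 and 1322. At time 120 of c6 it was back at 992.

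HSPA12A, a distant member of the HSP70 family, went from 414 to between 107 and 158 at times 48 to 96 in c6 and from 210.1 to between 63.4 and 90.2 in c8. It was -0.75 ± 0.17 at times 12 and 24 (limma, adjusted p = 0.032). GADD45A, a growth arrest and DNA damage gene, was lowest at times 12 and 24 of c6 (364 and 353, start 892), and at time 120 was 651. In c8 it was lowest at time 72, at 468 after a start of 948. The matrix genes ADAMTS9, a secreted protease, and MAMDC2 passed neither test. MAMDC2 stood at 101, 114 and 96.8 at times 4, 8 and 12 of c8, above its start of 59.2, and below it from time 24 on.

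In the remaining 17 genes, whose role is not given here, NWD2, CYYR1, TEX19, LRRC2 and OSGIN2 fell at times 12 and 24 and NWD2, EMP3, TEX19 and IGHM by time 120. NWD2, a protein with NACHT and WD repeats, had signals in c8 of 913, 1046, 993, 430.3, 456, 386, 330.2 and 297. In c6 they were 454, 407, 554, 295, 221, 303, 211, 147 and 185. The step between times 8 and 12 was without overlap in both clones. It was -1.01 ± 0.13 at times 12 and 24, the lowest adjusted p among the members (2.02-fold lower; limma, adjusted p = 0.0037), and -1.37 ± 0.22 at time 120 (adjusted p = 0.0063). CYYR1 was -0.60 ± 0.14 (adjusted p = 0.037) and TEX19 -0.71 ± 0.15 (adjusted p = 0.023) at times 12 and 24. The probe set annotated to MIR3682 is not taken to read the mature microRNA.

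The shares of the late fall made by times 4 and 8 describe the order of the falls, with no test, since both time 0 and the late arrays chose the members and a high array at time 0 alone gives a large share. By times 4 and 8, 25 genes had made 50% or more of their late fall in both clones. The 5 with the largest share over both clones were LOC101927166, which was back at 13.4% at times 12 and 24, PLPPR4, FAM221A, KCNG1 and LRIG3. In 14 genes under 25% had been made in both clones: SYTL4, INSM1, IGHM, TESC, CKM, NWD2, PROX1, TEX19, UNKL, FGFR2, SEL1L3, PALM3, NPTX1 and CHRNA1. The 5 with the smallest share were CHRNA1, NPTX1, PALM3, MAMDC2 and SEL1L3. In the other 38 the share lay between or the clones differed. In 16 genes the mean of times 12 and 24 lay below the late mean in both clones, among them PHLDB2 (228% of the late fall in c6 and 162% in c8), HES6 (147% and 121%) and KCNG1 (186% and 122%).

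The cell cycle lists went lowest within times 12 and 24. The median change of the 77 genes was lowest at time 96 of c6 (-1.10) and at time 72 of c8 (-0.91). The mean change of 37 DNA replication and S phase genes was lowest at time 24 of c6 (-1.08) and at time 12 of c8 (-0.74), and that of 32 G2 and mitosis genes was lowest on the same arrays (-1.04 and -0.68). At times 12 and 24 against 4 and 8, 14 of the 37 and 2 of the 32 fell by limma, and none of either list passed late against start or at time 120. Of 16 E2F factors and cyclins of the G1 to S step, 4 fell late (E2F1, E2F7, E2F8 and CCNE2) and 2 at times 12 and 24. Over all genes 2.36% were called lower late and 1.34% at times 12 and 24. No member is on these 3 lists. The median change of the 77 genes went from -0.96 at time 24 to -0.73 at time 48 in c6 and from -0.89 at time 12 to -0.74 at time 24 in c8, and the rule required the genes to be low at times 48 to 96. The part of the cell cycle lists in the falls of the 77 genes at times 12 and 24 was not tested.

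**Figure D5:**
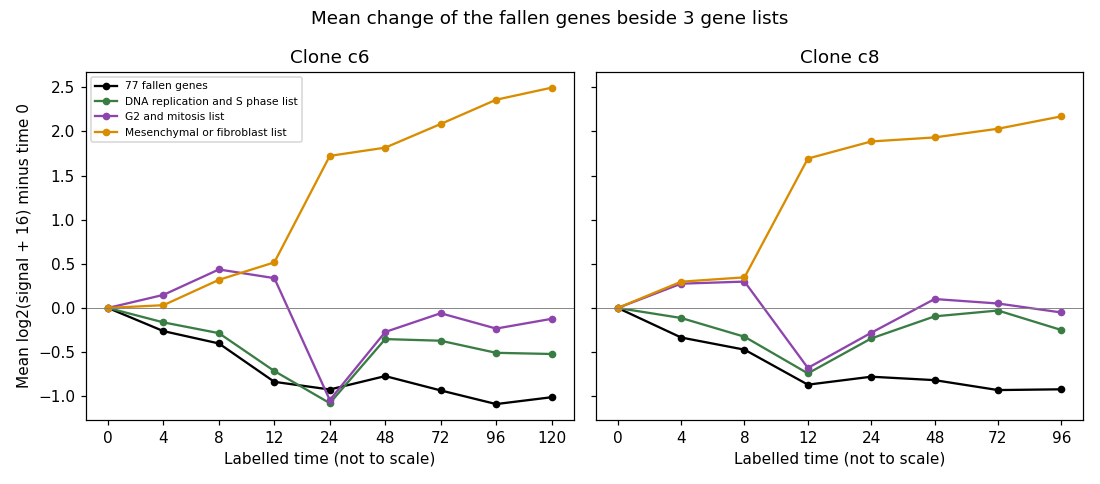
Mean change from time 0 on the log2(signal + 16) scale of the 77 genes (black), of DNA replication and S phase genes (green, 37), of G2 and mitosis genes (purple, 32) and of the tested mesenchymal or fibroblast markers (orange, 11) by labelled time in c6 (left) and c8 (right), 1 array per point. The green and purple lines are lowest at time 24 of c6 and time 12 of c8, the black line lies below 0 at every time after the start, and the orange line goes up throughout.

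The clones differed in the level of some members. Over times 4 to 24, with time as a term, limma called 7 members higher in c8 (9.09%, against 5.72% of all genes) and 10 lower in c8 (against 5.14%). Lower in c8 were NPTX1 (-1.70 ± 0.24, 3.25-fold), GPM6B (-1.46 ± 0.14), CKM (-1.31 ± 0.12), CDH7 (-1.25 ± 0.16) and GFRA1 (-0.93 ± 0.14). Higher were LMNB1 (1.13 ± 0.13, 2.19-fold), SLC1A2 (1.05 ± 0.14), FAM221A (0.99 ± 0.14), NWD2 (0.92 ± 0.13) and OTULINL (0.62 ± 0.16), with adjusted p from 0.0014 to 0.042 over these 10. GPM6B, a neuronal membrane proteolipid, had signals of 963, 776, 528 and 499 at times 4 to 24 in c6, and 272, 236, 179 and 255 in c8, with no overlap. The total of 17 members fell to 7 without time 8, to 10 without time 4 and to 10 when all probe sets of a gene were averaged.

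No member passed a test of whether its change from times 4 and 8 to times 12 and 24 differed between the clones (limma, 0 of 77, against 0% of all genes called). At an unadjusted p under 0.05 there were 8 members and 369 of all genes, and the smallest adjusted p of all genes was 0.56. With 4 residual degrees of freedom this does not show that the clones changed alike.

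Other probe sets of the same genes could be read in 55 members, 120 probe sets in all. Their late changes come from the same time 0 and late arrays that chose the members, so they are no independent test. Of the 39 with a mean of 5.5 or more, from 23 genes, all 39 were lower late in both clones, 18 of them by 0.6 or more. Among them were 4 of LSAMP, a neuronal adhesion protein, with late changes between -1.62 and -0.62 in c6 and none above -0.47 in c8. The 3 of TPD52, a coiled-coil protein of vesicle traffic, lay between -0.86 and -0.62 in both clones, and the 2 of KREMEN1 between -1.23 and -0.83. Others fell less. The late changes in c6 and c8 were -0.26 and -0.21 for that of OSGIN2 and -0.19 and -0.88 for that of LRRC2. For 1 of VSTM2A they were -0.21 and -0.40. Of the 81 dimmer probe sets 35 were lower in both clones and 12 higher in both. These counts were not set against other probe sets of all genes.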

How the data were processed

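RNA of 17 samples was hybridised to Affymetrix arrays of 54675 probe sets, 1 array per clone and time. The deposited values are intensity signals on a linear scale; per the submitters' processing notes MAS5 and GCOS were used, whose versions are not given in the sources used here. On every array the mean of the deposited intensities after trimming was 100.01, so no further scaling was added. Precision is limited by how few arrays there are, and no counting depth applies.

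Of the probe sets, 41097 had 1 gene symbol, 1801 several and 11777 none; 41043 were found by gene ID in the RefSeq table, and 0 symbols changed. Values were used as log2(signal + 16), which understates the change of dim genes. Tests used limma 3.58.1 in R 4.3.3 (lmFit, eBayes with a trend; two-sided), Benjamini-Hochberg adjusted over 10528 genes, at 0.05. Times 12 and 24, and 120, against 4 and 8 came from 9 arrays with a clone term (5 residual degrees of freedom), the clone level from 8 arrays with a time term (3), and late against start from all 17 (7). The time 120 level has 1 array, and its spread is taken from the others. This array does not enter the difference between times 12 and 24 and times 4 and 8. Neighbouring times serve as replicates of a phase. Pairing by clone comes from the labels, and the clone is a term of each fit. No pair of arrays shared more than 1.42% of values.

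Named genes were the 15 largest late falls, the largest differences past the threshold in each test, the 5 earliest and latest, those nearest the threshold, those on the gene lists or with 3 or more bright probe sets; others are named where a count or group needed them and were chosen after their values were seen. The members and lists were chosen with earlier results of these data known. The limma tests were tried on simulated data with independent noise. The rule, the probe set choice, the shares of the late fall, the counts without overlap and the promoter search were not. Alternatives were the pseudocount, normalization, filter, probe set rule, eBayes trend, clone term and leaving out each array.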

Additional observations from a re-analysis of the deposited data

How the results depend on the processing

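The clone is the pairing of the arrays and stood in every fit. Without this block the members past the threshold were 7 of 77 at times 12 and 24, in place of 24, and 5 at time 120, in place of 19, and all genes called late against start were 460, in place of 888. Leaving out single arrays gave 5 to 34 members at times 12 and 24, 10 to 23 at time 120 and 7 to 20 for the clone difference in level (main 17). Leaving out time 0 of c6 or c8, chosen after seeing the data, gave 381 and 347 genes late against start. The rule itself found 38 genes with a pseudocount of 64 and 43 with all probe sets of a gene averaged, in place of 77. Averaging probe sets also gave 10 members for the clone difference in level and turned ABCA5 there from -0.45 to 0.0096. The causes were not tested. All other alternatives for the counts kept within 1.5 times of the main value. The clone difference in change called 0 members in every setting. Signal over background was not used; the log2 change of dim genes, near a signal of 16, is understated most.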
